A study of Rattus norvegicus with 9 samples.

Results

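The genes described here are the major urinary proteins of rat liver together with other liver genes outside the cytochrome P450 family whose level is set by growth hormone or by sex. They were chosen by name, from results already computed on these rats, as Mup4, Mup5, Obp3, Srd5a1, A1bg, Stac3, Hao2 and Ust5r. Of these 8 symbols, 6 stand in the gene name column of the deposited table, Mup4 under 2 identifiers that were kept apart, so that 7 of 32883 rows are members. No row carries the symbols Mup5 or Obp3. One row without a gene symbol (AABR07048474.1) is described as Mup5 mRNA, and it is reported below among the neighbours of Mup4 and not as a member, and the level of Obp3 was not analysed here. The deposited gene type of the members is protein coding, and positions below are those of the deposited file, whose genome build is not given in the sources used here.

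The data are mRNA-seq of the liver from 9 male rats of the Sprague-Dawley stock, 3 in each of 3 groups, made to compare the liver under the carcinogen diethylnitrosamine (DEN) with and without Pien-Tze-Huang (PZH), a traditional Chinese formula. The normal control rats (N1, N12 and N3) were on a normal diet and received neither agent. The DEN model rats (M13, M17 and M24) received 0.01% DEN by weekly intraperitoneal injection over a scheme of 16 weeks, and the PZH administration rats (G27, G28 and G42) received the same DEN together with PZH. The treatment tag of the DEN model rats reads PZH as well, against their title letter, and the groups follow the letters. The study ran more than 1 PZH dose and collected rats at several weeks, and neither the dose nor the week of each sequenced rat is given in the labels, so dose and week cannot be told apart from the differences between rats of a group. Total counts were 14922973 to 16641954 in 8 rats and 27161496 in G27. Values per rat are CPM, read counts relative to library sizes scaled by edgeR's TMM factors, and levels of different genes were compared only in FPKM, which the authors scaled for gene length. A floor of 3 counts stood for 0.125 to 0.252 CPM, depending on the rat, and covers counting error only. Hepatocyte markers were present in every rat, with a summed level of 8 markers of 168200 to 185897 CPM in normal control rats, 37531 to 86841 CPM in DEN model rats and 144547 to 181135 CPM in PZH administration rats. Under library totals alone, the median over all genes shifted on the log2 scale by 0.87 for DEN model against normal control, by -0.67 for PZH administration against DEN model and by 0.23 for PZH administration against normal control, so every direction below is relative to the TMM scaling.

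The liver of the rat is one of the organs that differ most between the sexes. The pituitary of a male rat releases growth hormone in pulses and that of a female rat almost without pause, and hepatocytes read this rhythm through the growth hormone receptor, the kinase JAK2 and the transcription factor STAT5b. Pulses keep up the male genes, among them the alpha2u globulins (the major urinary proteins of the rat, small lipocalins that carry pheromones into the urine) and Cyp2c11. The steady pattern keeps up the female genes, among them Cyp2c12 and A1bg. Androgens, glucocorticoids and thyroid hormone act on the alpha2u globulins as well.

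The Mup4 rows and Stac3 were at or near 0 reads in the liver of the DEN model rats, Hao2 and Ust5r were at a few percent of the normal control mean there, and in the PZH administration rats all of these had means below normal control and above DEN model. Srd5a1 was lower and A1bg higher in both groups given DEN than in the normal control group. Of the 7 member rows, 6 were lower and 1 was higher in the DEN model than in the normal control group. Because the members were chosen on these contrasts, their values are given as a description, with fitted log2 fold changes and standard errors. The counts of member rows past thresholds below are part of that description and are no test of the members. The study's thresholds ask for a log2 fold change beyond 2 in size and for an unadjusted p under 0.001. Past them were 5 member rows lower (Mup4 under both identifiers, Stac3, Hao2 and Ust5r) and 1 higher (A1bg), where 3.49% of all 14255 genes tested were lower and 8.81% higher past the same thresholds. A1bg was no longer past them without M13, N1, N12 or N3, and the 5 lower rows were past them whichever rat was left out. The 3 DEN model rats lay apart from the 3 normal control rats in all 7 member rows, as they did in 58.8% of all genes tested. With PZH administration set against the DEN model, 4 member rows were higher past the thresholds (Mup4 under both identifiers, Hao2 and Ust5r) and 0 lower, against 1.08% and 1.35% of 14272 genes. The filter on low counts left Stac3 out of this fit, so 6 of the 7 member rows were tested. The same 4 rows were past the thresholds whichever rat was left out. Stac3 joined them without G42, with no filter on low counts and with all 3 groups in one fit. It was tested but not past them without M13, M17 or M24. The PZH administration and DEN model rats did not overlap in 5 of the 7 rows, against 40.8% of the genes tested. Between the PZH administration and normal control groups, 1 member row (A1bg) was higher past the thresholds and 0 were lower, against 2.16% and 0.165% of 13348 genes, and the rats did not overlap in 6 of the 7 rows, against 24.2% of genes. The median log2 fold change of the member rows was -5.48 in the DEN model against the normal control group, beside 0.03 over all genes tested. This median is the value of Ust5r, and as the members were chosen on this contrast it is a description only.

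**Figure D1:**
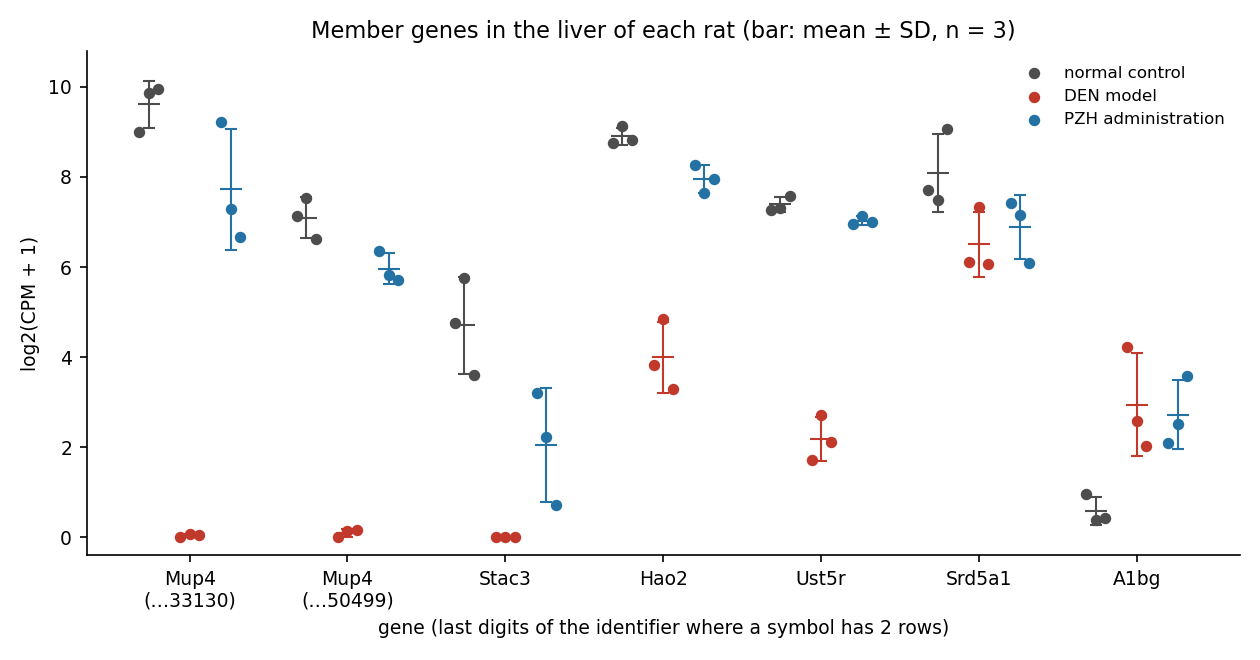
Level of each member row in each rat, as log2(CPM + 1) on the vertical axis, with the mean and SD over the 3 rats of a group as bars. The DEN model points of both Mup4 rows and of Stac3 sit at or next to 0, those of Hao2 and Ust5r lie between the axis and the other groups, Srd5a1 is the row whose DEN model and normal control means differ least, and A1bg is the row in which the normal control rats are lowest.

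Mup4, an alpha2u globulin, has 2 rows in the file. The first (ENSRNOG00000033130, chr5:77404914-77408363) was at 514, 937 and 982 CPM in N1, N12 and N3, at 0, 0.0495 and 0.0416 CPM in M13, M17 and M24, which are 0, 1 and 1 reads, and at 597, 156 and 99.9 CPM in G27, G28 and G42. The normal control and DEN model rats lay far apart, while G27 fell inside the normal control range and the other PZH rats fell below it. Set against the pooled rate of the 2 DEN model reads, its mean was 27467-fold higher in normal control rats, with a 95% exact Poisson interval of 7604 to 226806, and 9625-fold higher in PZH administration rats (2664 to 79474), the last of which came to 4327-fold without G27. These intervals, and those below, cover the counting error of the pooled DEN model reads and not the spread between rats. The fitted log2 fold change was -14.42 ± 0.63 (SE) for DEN model against normal control, from -14.8 to -13.89 with 1 rat left out, 12.99 ± 1.15 (SE) for PZH administration against DEN model, which came to 11.81 without G27, and -1.52 ± 0.61 (SE) for PZH administration against normal control, which came to -2.67 without G27. The second row (ENSRNOG00000050499, chr5:77313357-77433854) was at 139.6, 184 and 98.1 CPM in the normal control rats, at 0, 0.0991 and 0.125 CPM in the DEN model rats (0, 2 and 3 reads), and at 81.4, 56.0 and 51.1 CPM in G27, G28 and G42. All 3 PZH administration rats lay between the other groups here, with a fitted log2 fold change of -10.74 ± 0.52 (SE) for DEN model against normal control, 9.64 ± 0.50 (SE) for PZH administration against DEN model and -1.15 ± 0.27 (SE) for PZH administration against normal control. Near-identical copies of the family can share reads and this second row covers the whole of the first, so that the split of reads between them is uncertain. In the bulk liver, fewer cells of a type and less RNA per cell cannot be told apart.

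The promoters of Mup4, Mup5 and Obp3 are shown to compare the urinary protein members in sequence, of which only Mup4 has member rows with values here. All 8 members have a promoter in RefSeq (build GRCr8, which is not the build of the coordinates above), and the 250 bases before the annotated start are printed 5′ to 3′ on the gene's own strand, with capitals marking a match to a searched motif on either strand. The motifs were TTCNNNGAA (the STAT5 site, present in 7.67% of all 33469 promoters of this length), TGTTCT (core of an element bound by steroid hormone receptors, 17.5%) and TATAAA (which places the start of transcription, 12.9%). Mup4 (chr5:79759497-79759746, minus strand), Mup5 (chr5:79999696-79999945, minus strand) and Obp3 (chr5:79640676-79640925, minus strand) read as follows.
Mup4: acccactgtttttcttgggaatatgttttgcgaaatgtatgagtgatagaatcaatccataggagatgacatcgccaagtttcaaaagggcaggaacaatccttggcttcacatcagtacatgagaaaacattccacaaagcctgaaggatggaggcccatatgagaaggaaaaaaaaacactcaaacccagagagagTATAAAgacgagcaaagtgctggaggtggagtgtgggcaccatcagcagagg
Mup5: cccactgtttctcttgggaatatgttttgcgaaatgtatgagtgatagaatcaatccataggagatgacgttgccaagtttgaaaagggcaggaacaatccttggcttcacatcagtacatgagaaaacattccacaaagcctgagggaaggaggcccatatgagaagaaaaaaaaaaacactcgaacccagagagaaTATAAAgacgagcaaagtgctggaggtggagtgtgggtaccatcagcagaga
Obp3: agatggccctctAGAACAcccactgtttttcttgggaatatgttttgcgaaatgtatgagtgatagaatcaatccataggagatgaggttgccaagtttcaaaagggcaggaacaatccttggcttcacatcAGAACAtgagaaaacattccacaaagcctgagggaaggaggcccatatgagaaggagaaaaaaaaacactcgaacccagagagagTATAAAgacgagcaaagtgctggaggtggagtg
Aligned with free ends, Mup4 and Mup5 were identical in 238 of 250 columns (95.2%), Mup4 and Obp3 in 224 of 233 (96.1%) and Mup5 and Obp3 in 225 of 232 (97.0%). Each holds TATAAA, starting 52 bases before the annotated start in Mup4 and Mup5 and 33 bases before it in Obp3. The receptor core TGTTCT is found in the Obp3 window alone, 238 and 118 bases before the start, in the complementary orientation. Since TATAAA lies nearer the start in Obp3, its window reaches further upstream of that box, and the match at 238 bases falls outside the stretch that the Mup4 and Mup5 windows cover. No window of the 3 holds TTCNNNGAA. A match is a description of letters and not a binding site, and the absence of a match says nothing about the factor.

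The alpha2u globulin genes of the rat lie in a cluster on chromosome 5, and the rows from 1 Mb before the first to 1 Mb after the last Mup4 row were read as local neighbours. Besides the Mup4 rows, 70 rows of the file fall there, and 5 of them are described as a major urinary protein or an alpha2u globulin (AABR07048474.1, LOC259244, LOC298111, LOC500473 and RGD1566134). With the Mup4 rows these make 7 urinary protein rows, each of which overlaps the span of at least 1 of the others. Their summed level was 12109, 17552 and 9408 CPM in N1, N12 and N3, 0.340, 1.19 and 1.46 CPM in M13, M17 and M24, and 7382, 2604 and 1520 CPM in G27, G28 and G42. The sum in the DEN model group was 0.00764% of the normal control mean, and the sum in the PZH administration group 29.5% of it (15.8% without G27), with 8 to 35 reads per DEN model rat and 112103 to 229976 per normal control rat. The summed hepatocyte markers of the same rats stood at 32.9% of the normal control mean in the DEN model group and at 89.2% in the PZH administration group. The part of hepatocyte number or hepatocyte RNA in the difference was not tested.

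LOC259244, described as alpha2u globulin PGCL3 (chr5:77245143-77492013), had the highest FPKM of the urinary protein rows, with 3668, 5341 and 2021 FPKM in N1, N12 and N3, 0.108, 0.616 and 0.746 FPKM in M13, M17 and M24, and 2302, 865 and 480 FPKM in G27, G28 and G42. In the DEN model rats 3, 18 and 20 of its reads were counted, a 6.99-fold range in CPM, and against their pooled rate its mean was 13617-fold higher in normal control rats (95% exact Poisson interval 10037 to 18975, counting error only). AABR07048474.1, the row described as Mup5 (chr5:77405142-77903113), was at 1211, 1763 and 1357 FPKM in the normal control rats, at 0.189, 0.108 and 0.274 FPKM in the DEN model rats and at 828, 337 and 219 FPKM in the PZH administration rats. Both rows repeated the order of the group means seen in Mup4. In LOC259244, G27 lay above N3 in FPKM and below it in TMM-scaled CPM (4687 against 4859 CPM), so their order depends on the scale. In AABR07048474.1 all PZH administration rats lay below every normal control rat on both scales. LOC298111 (chr5:77564024-77903062) was at 131, 177 and 130.0 CPM in the normal control rats, at 0, 0 and 0.0416 CPM in the DEN model rats and at 98.2, 48.5 and 32.2 CPM in the PZH administration rats. LOC500473 (chr5:77338853-77342299) was at 353, 432 and 114 CPM in N1, N12 and N3, against 0, 0 and 0.0833 CPM in the DEN model rats and 178, 51.8 and 26.0 CPM in the PZH administration rats. RGD1566134 (chr5:77430401-77433847) was at 311, 372 and 114 CPM in N1, N12 and N3, against 0, 0 and 0.0416 CPM in the DEN model rats and 135, 48.9 and 24.9 CPM in the PZH administration rats. LOC500473 and RGD1566134 had 1364 reads each in N3, and both span 3447 bases, so the reads of these copies may be divided between them. In these 2 rows N3 was the lowest normal control rat, whereas N3 was the highest in the first Mup4 row.

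The fitted log2 fold changes of the 7 urinary protein rows ran from -14.42 to -10.74 for DEN model against normal control, from 9.64 to 12.99 for PZH administration against DEN model and from -1.91 to -1.15 for PZH administration against normal control. All 7 were past the thresholds in the first 2 comparisons and 0 in the last. Over all genes tested, 3.49% were lower in the first, 1.08% higher in the second, and 2.16% higher and 0.165% lower in the last. Over the 70 neighbours as a whole, of which 35 could be tested in the last comparison, 0 were past the thresholds by edgeR's quasi-likelihood test, 2 were higher and 8 lower at an unadjusted p under 0.05, and 0 were past the thresholds by DESeq2. The shares of all genes at an unadjusted p under 0.05 and by DESeq2 were not worked out, so nothing is read from these counts. Of the other neighbours, 29 rows reached a mean of 1 CPM in a group, and 6 of these were lower past the thresholds in the DEN model group, with log2 fold changes from -12.21 to -5.73. These 6, of which 3 are annotated as protein coding and 3 as unprocessed pseudogenes (AABR07048436.1, AABR07048463.1, AABR07048473.1, AABR07048475.1, AABR07048482.1 and AABR07048487.2) carry no description as a urinary protein, and they lie among the urinary protein rows or beyond them towards higher coordinates. AABR07048463.1, AABR07048475.1, AABR07048482.1 and AABR07048487.2 had no read in the DEN model rats. The size of their fitted fold changes, with the -12.21 of AABR07048463.1 among them, is therefore not measured. AABR07048463.1 was at 25.2, 48.6 and 27.4 CPM in the normal control rats, at 0 reads in all 3 DEN model rats and at 17.3, 30.5 and 10.6 CPM in the PZH administration rats, at least 253-fold higher in normal control and at least 146-fold higher in PZH administration than in DEN model rats against a floor of 3 counts per library. The other 23 neighbours had a median log2 fold change of 0.03, from -1.19 to 2.55, in the DEN model against the normal control group, and 1 of them, Bspry, was higher past the thresholds, which it was not without M13, M24, N1, N12 or N3. Under library totals 3 of them were higher past the thresholds (Bspry, Wdr31 and Ugcg). Among them Alad, an enzyme of heme synthesis, was at 141 ± 2.07 CPM in normal control and 61.3 ± 11.5 CPM in DEN model rats (SD, n = 3), and Slc31a1, a copper transporter, was at 117 ± 11.1 and 53.7 ± 21.3 CPM (SD, n = 3). Of the 23, 2 (AABR07048419.2 and AABR07048421.1) lie between urinary protein rows and were near 1 CPM or below in every group.

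**Figure D2:**
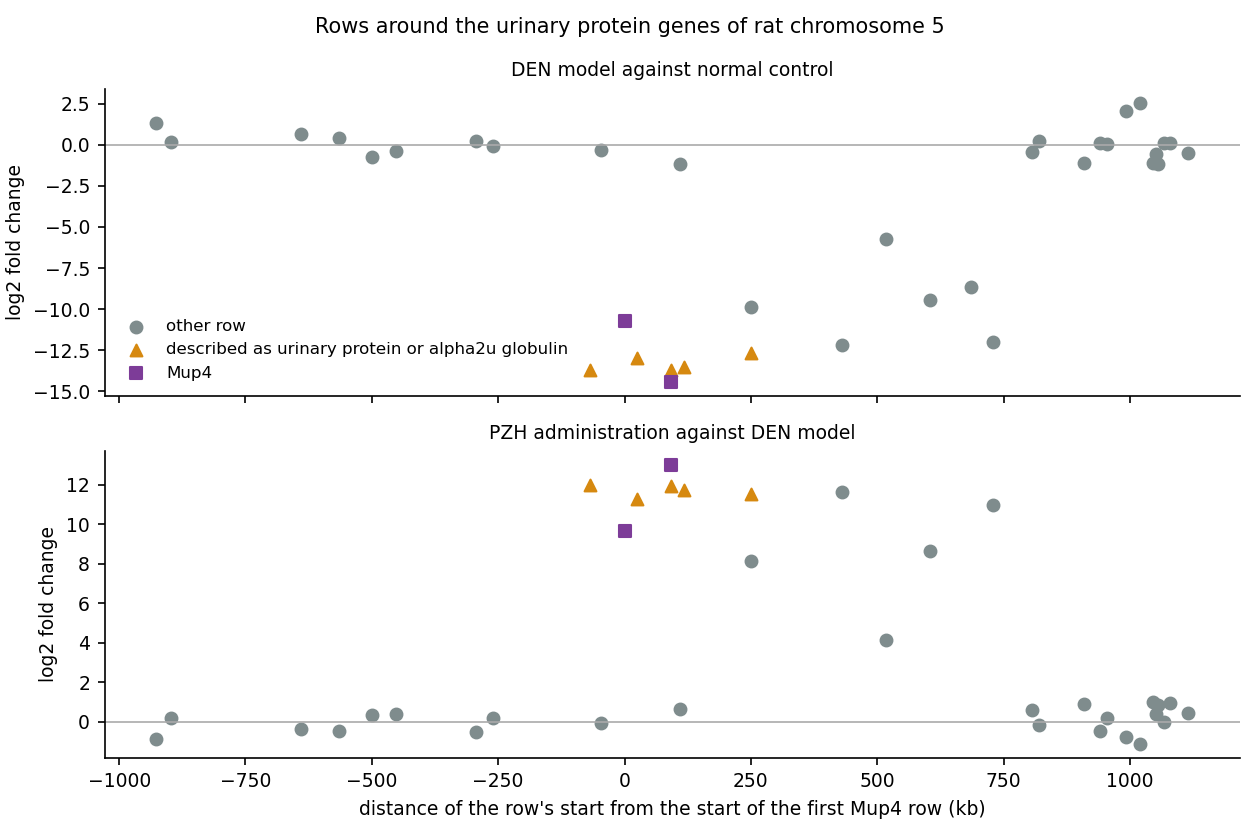
Fitted log2 fold change (vertical axis) of rows around the Mup4 genes against the distance in kb from the start of the Mup4 row that begins first (the wider of the 2), for rows with a mean of at least 1 CPM in a group. Urinary protein rows (triangles), Mup4 (squares) and 6 other rows (circles) towards higher coordinates lie below -5 in the upper panel, the 5 of these 6 that could be tested in the lower panel lie above 4 there, and the remaining rows stay between -1.19 and 2.55 in the upper panel.

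Stac3 (ENSRNOG00000008050, chr7:70807867-70815270) encodes an adaptor protein known for coupling excitation to contraction in skeletal muscle. It was at 26.1, 53.2 and 11.2 CPM in N1, N12 and N3, at 0 reads in each DEN model rat and at 8.28, 3.69 and 0.641 CPM in G27, G28 and G42, the last of which is 9 reads. The 3 groups did not overlap, and the PZH administration rats spread over a 12.9-fold range. Against a floor of 3 counts per library, Stac3 was at least 225.5-fold higher in normal control and at least 31.4-fold higher in PZH administration than in DEN model rats, the second of which came to at least 16.2-fold without G27. The first bound rests most on N12, the highest of the normal control rats, and was not worked out without that rat. The filter on low counts left it out of the fit of PZH administration against DEN model, and its fitted log2 fold change for PZH administration against normal control was -2.79 ± 0.78 (SE), which came to -3.78 without G27 and to -2.11 without N12. The 8 skeletal muscle markers summed to 2.35 to 5.54 CPM in normal control rats, 3.76 to 8.70 CPM in DEN model rats and 2.37 to 4.56 CPM in PZH administration rats, with Ckm and Cacna1s at 0 reads in all 9 rats. Acta1, the actin of skeletal muscle, had 0 reads in the normal control rats, 1.40, 1.34 and 2.66 CPM in M13, M17 and M24 and 0.128, 0.418 and 0.356 CPM in G27, G28 and G42, and it rose past the thresholds in DEN model against normal control rats (adjusted p = 0.00184 by edgeR). The part of muscle tissue in the Stac3 values was not tested.

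Hao2 (ENSRNOG00000019470, chr2:200778122-200808857) encodes a peroxisomal oxidase of hydroxy acids. It was at 430.5, 556 and 453 CPM in N1, N12 and N3, at 13.3, 27.8 and 8.87 CPM in M13, M17 and M24 and at 305, 198 and 246 CPM in G27, G28 and G42. All 3 groups lay apart, with the PZH administration rats at 52.0% of the normal control mean and the DEN model rats at 3.47% of it. The fitted log2 fold change was -4.84 ± 0.46 (SE) for DEN model against normal control, 3.94 ± 0.45 (SE) for PZH administration against DEN model and -0.94 ± 0.23 (SE) for PZH administration against normal control. Ust5r (ENSRNOG00000061890, chr1:224457900-224533219), a membrane transport protein related to the organic anion transporters of the SLC22 family, was at 154, 158 and 191 CPM in the normal control rats, at 2.29, 5.55 and 3.33 CPM in the DEN model rats and at 122, 139 and 127 CPM in the PZH administration rats. It was the member with the smallest gap between PZH administration and normal control rats, 77.3% of the normal control mean in CPM and 91.3% in FPKM, and its PZH administration rats spread only 1.14-fold. Its fitted log2 fold change was -5.48 ± 0.35 (SE), 5.15 ± 0.34 (SE) and -0.37 ± 0.19 (SE) in the same 3 comparisons. Among DEN model rats M17 was highest in both genes, and M17 also had the highest summed hepatocyte markers (86841 CPM against 51959 and 37531) and the lowest summed ductular markers (198 CPM against 583 and 722) of its group. The part of these cell types in the spread was not tested.

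A1bg and Srd5a1, genes of the female pattern in rat liver, did not go the same way. A1bg (ENSRNOG00000004692, chr7:102294797-102298522), a secreted glycoprotein of the immunoglobulin superfamily, was at 0.937, 0.305 and 0.336 CPM in N1, N12 and N3, which are 12, 4 and 4 reads, at 17.8, 4.95 and 3.08 CPM in M13, M17 and M24 and at 3.24, 4.73 and 10.9 CPM in G27, G28 and G42. Every rat given DEN, with or without PZH, lay above every normal control rat, and the DEN model and PZH administration rats overlapped. Its fitted log2 fold change was 4.03 ± 0.79 (SE) for DEN model against normal control, from 2.94 to 4.71 with 1 rat left out, -0.44 ± 0.68 (SE) for PZH administration against DEN model, which turned to 0.65 without M13, and 3.56 ± 0.63 (SE) for PZH administration against normal control. The promoter of A1bg holds TTCNNNGAA, the motif that was found in no other member, 69 bases before the annotated start (chr7:94387497-94387746, minus strand, GRCr8), and it is shown for the row that went against the others.
A1bg: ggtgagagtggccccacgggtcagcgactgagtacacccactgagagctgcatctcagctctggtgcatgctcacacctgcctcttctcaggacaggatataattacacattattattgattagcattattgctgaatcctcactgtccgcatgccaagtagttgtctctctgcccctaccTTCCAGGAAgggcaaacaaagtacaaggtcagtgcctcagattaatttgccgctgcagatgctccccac
Srd5a1 (ENSRNOG00000017601, chr1:36320461-36354756), the steroid reductase that turns testosterone into dihydrotestosterone, was at 207, 179 and 537 CPM in N1, N12 and N3, at 67.7, 159 and 66.5 CPM in M13, M17 and M24 and at 171, 143 and 66.7 CPM in G27, G28 and G42. All rats given DEN were below all normal control rats, and the DEN model and PZH administration rats overlapped. The fitted log2 fold change was -1.64 ± 0.51 (SE) for DEN model against normal control, which came to -0.96 without N3 and to -0.81 under library totals, 0.40 ± 0.44 (SE) for PZH administration against DEN model, which turned to -0.22 under library totals, and -1.30 ± 0.49 (SE) for PZH administration against normal control, which came to -0.58 without N3. The P450 genes of the same hormone pattern were read beside them. The female gene Cyp2c12 stood at 73.2, 109 and 31.6 CPM in the normal control rats, at 389, 955 and 201 CPM in the DEN model rats and at 361, 546 and 799.6 CPM in the PZH administration rats, while the male gene Cyp2c11 stood at 1211, 2098 and 1890.1 CPM, at 0.977, 1.44 and 0.624 CPM and at 874, 714 and 403 CPM in the same order. In the level of the female genes, A1bg and Cyp2c12, the PZH administration rats were thus near the DEN model rats, and in the level of Cyp2c11, Mup4, Hao2 and Ust5r they were nearer the normal control rats on the log2 scale. On that scale, as log2(CPM + 1), the PZH administration mean of Srd5a1 had closed 24.6% of the gap from DEN model to normal control and lay nearer the DEN model. This share depends on single rats and on the scaling. The fitted change of Srd5a1 against the DEN model came to 0.12 without G27, 0.93 without M17 and -0.22 under library totals. For Stac3 the share depends on the value set for the DEN model rats, which had no read, and none is given.

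The PZH administration rats kept the same order in many of these genes. In all 7 urinary protein rows, in Stac3, in Srd5a1 and in Cyp2c11, G27 was highest and G42 lowest, and in A1bg and Cyp2c12 G42 was highest and G27 lowest. Hao2 (G27, then G42, then G28) and Ust5r (G28, then G42, then G27) followed other orders. The range from the highest to the lowest PZH rat was 5.98-fold in the first Mup4 row, 1.59-fold in the second, 6.83-fold in LOC500473, 5.42-fold in RGD1566134, 5.23-fold in LOC259244, 4.12-fold in AABR07048474.1, 3.05-fold in LOC298111, 3.36-fold in A1bg and 2.21-fold in Cyp2c12. The urinary protein rows overlap in location and may share reads, so their orders are not taken as separate observations. G27 had the deepest library of all rats, with 27161496 counts, and summed hepatocyte markers of 181135 CPM against 152599 in G28 and 144547 in G42, and the part of these in the order was not tested. G27 also had 67.4 CPM of Cish and 38.6 CPM of Socs2, the feedback inhibitors that STAT5 switches on, against 9.95 and 12.9 CPM of Cish and 7.59 and 4.06 CPM of Socs2 in G28 and G42. Whether these levels bear on the order of the rats was not tested. Without G27, 5 neighbouring rows in place of 0 were lower past the thresholds in PZH administration than in normal control rats (LOC259244, LOC500473, RGD1566134, AABR07048474.1 and AABR07048473.1), and the member rows past them were 3 (A1bg, Stac3 and 1 of the Mup4 rows) in place of 1. Without N12 or without N3, 0 member rows were past the thresholds in that comparison.

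**Figure D3:**
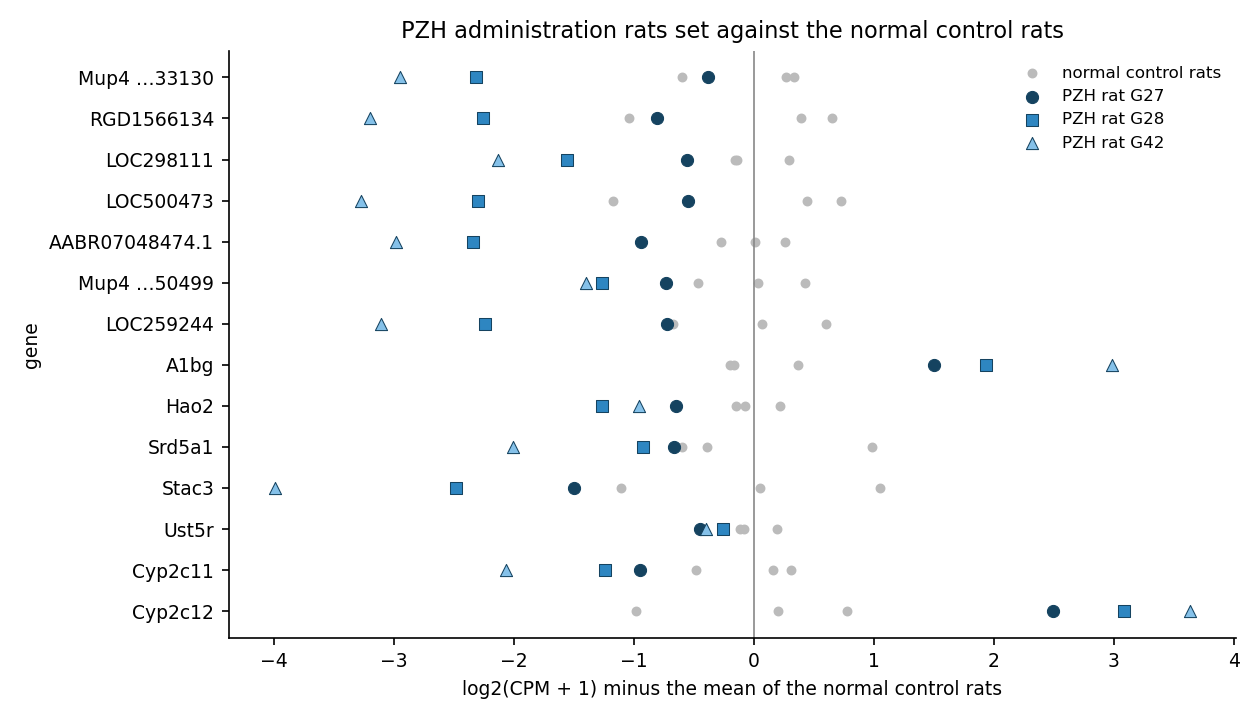
Level of each gene in the 3 PZH administration rats and the 3 normal control rats, as log2(CPM + 1) minus the mean of the normal control rats (horizontal axis). In the urinary protein rows, Stac3, Srd5a1 and Cyp2c11 the points run from G27 on the right to G42 on the left, and in A1bg and Cyp2c12 all 3 PZH rats lie right of the normal control rats in the opposite order.

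The genes of growth hormone signalling, with the receptor of the hormone and genes that the hormone induces among them, were read next. Of all genes tested, 3.49% were lower and 8.81% higher past the thresholds in the DEN model against the normal control group. By edgeR's quasi-likelihood test, 3 of 13 genes of the list were lower past them in that comparison and 0 were higher. These were Ghr, the growth hormone receptor, from 851 ± 169 to 147 ± 53.3 CPM (SD, n = 3; log2 fold change -2.52 ± 0.33 SE, adjusted p = 0.000704 by edgeR), Igf1, the growth factor that growth hormone induces in liver, from 423, 448 and 463 CPM in the normal control rats to 96.9, 163 and 47.6 CPM in the DEN model rats (-2.10 ± 0.41 SE, adjusted p = 0.00378 by edgeR) and Igfals, the acid-labile subunit of its serum complex (-4.06 ± 0.64 SE, adjusted p = 0.00155 by edgeR). Igf1 was no longer past the thresholds without M13, M24, N1, N12 or N3, while Ghr and Igfals were past them whichever rat was left out. Under library totals the split was 1 lower (Igfals) and 1 higher (Cish), and Ghr and Igf1 were not past the thresholds. At an adjusted p under 0.05, 5 were lower and 3 higher, where 20.5% of all genes were lower and 25.3% higher. Stat5b went from 41.7 ± 3.52 to 25.0 ± 2.80 CPM (SD, n = 3; -0.72 ± 0.16 SE, adjusted p = 0.00746 by edgeR) and came to 0.13 on the log2 scale under library totals. Cish rose (1.52 ± 0.28 SE, adjusted p = 0.00312 by edgeR), and Socs2 had a log2 fold change of -0.04 ± 0.43 SE, turned to 0.83 under library totals. Between PZH administration and DEN model rats 0 genes of the list passed the thresholds, with 5 higher and 2 lower at an unadjusted p under 0.05 and 1 past the thresholds by DESeq2. Past the thresholds were 1.08% of all genes higher and 1.35% lower. At an adjusted p under 0.05 Ghr, Igf1 and Igfals were higher there and 0 genes of the list lower, beside 8.72% of all genes higher and 10.3% lower, and 2 genes (Ghr and Igf1) passed the thresholds without M17. Between PZH administration and normal control rats 0 genes of the list passed the thresholds, with 1 higher and 3 lower at an unadjusted p under 0.05 and 1 past the thresholds by DESeq2. For the counts at an unadjusted p under 0.05 and by DESeq2, in both comparisons, no share of all genes was worked out. Past the thresholds were 2.16% of all genes higher and 0.165% lower. Cish was the 1 gene of the list at an adjusted p under 0.05 (3.11 ± 0.70 SE, adjusted p = 0.0394 by edgeR), beside 4.07% of all genes higher and 1.15% lower, and 1 gene passed the thresholds without G27 (Igfals, lower), without N12 (Prlr, lower) and without G28 or G42 (Cish, higher). The Cish level of the PZH administration group rests largely on G27, as given above. The median log2 fold change of the list was -0.13, 0.47 and -0.02 in the 3 comparisons, beside 0.03, 0.01 and -0.02 over all genes tested.

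Among 12 liver transcription factors, 2 fell and 1 rose past the thresholds in the DEN model against the normal control group. Over all genes tested, 3.49% were lower and 8.81% higher past them. Bcl6, a repressor of female genes that is higher in male liver, fell from 87.1, 77.1 and 85.3 CPM in the normal control rats to 6.93, 7.87 and 17.1 CPM in the DEN model rats (-2.95 ± 0.34 SE, adjusted p = 0.000406 by edgeR), and Foxa3, a forkhead factor of hepatocytes, fell (-2.09 ± 0.38 SE, adjusted p = 0.00295 by edgeR). Tox, higher in female liver in the mouse, rose (5.49 ± 0.71 SE, adjusted p = 0.000663 by edgeR). Bcl6 and Tox were past the thresholds whichever rat was left out, and Foxa3 was so only with all rats or without M17. Under library totals the split was 1 lower (Bcl6) and 2 higher (Tox and Trim24). Cux2, a repressor of male genes found in female liver, had 4.02 ± 2.56 CPM in normal control and 3.91 ± 1.78 CPM in DEN model rats (SD, n = 3), with a log2 fold change of -0.02 ± 0.59 SE that turned to 0.80 under library totals. At an adjusted p under 0.05, 8 factors were lower and 2 higher in the DEN model, beside 20.5% of all genes tested lower and 25.3% higher, with Hnf4a, Cebpa and Cebpb among the lower. Between PZH administration and DEN model rats 0 passed the thresholds, with 7 higher and 1 lower at an unadjusted p under 0.05 and 1 past the thresholds by DESeq2, and 4 were higher and 1 lower at an adjusted p under 0.05, beside 8.72% of all genes tested higher and 10.3% lower. Past the thresholds were 1.08% of all genes higher and 1.35% lower. In that comparison 1 factor passed the thresholds without M17 (Foxa3, higher) and 1 without G28 (Tox, lower). Between PZH administration and normal control rats 0 passed, with 2 higher and 3 lower at an unadjusted p under 0.05 and 0 past the thresholds by DESeq2. For the counts at an unadjusted p under 0.05 and by DESeq2, in both comparisons, no share of all genes was worked out. Past the thresholds were 2.16% of all genes higher and 0.165% lower. Cebpb was lower there (-1.68 ± 0.27 SE, adjusted p = 0.0104 by edgeR), and 1 factor passed the thresholds without G28 (Bcl6, lower).

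Of 13 steroid receptors and steroid enzymes tested, 3 fell past the thresholds in the DEN model against the normal control group and 0 rose, beside 3.49% of all genes tested lower and 8.81% higher. Car3, a carbonic anhydrase of male rat liver placed in this list for its androgen pattern, went from 799.8 ± 464 to 3.13 ± 4.84 CPM (SD, n = 3; -8.00 ± 1.39 SE, adjusted p = 0.00234 by edgeR). Sult1e1, the estrogen sulfotransferase, fell from 1521 ± 320.3 to 7.08 ± 7.39 CPM (SD, n = 3; -7.74 ± 1.20 SE, adjusted p = 0.00145 by edgeR), and Hsd3b5, a steroid dehydrogenase, fell from 488 ± 86.3 to 11.8 ± 6.68 CPM (SD, n = 3; -5.35 ± 0.46 SE, adjusted p = 0.00014 by edgeR). Without M17 the number past the thresholds was 6, and without N3 it was 1 (Hsd3b5), while Car3 was not past them without N1 or N12 either. Under library totals the same 3 genes were lower and 1 (Srd5a3) was higher. Sult1e1 and Hsd3b5 rose past the thresholds in PZH administration against DEN model rats (6.72 ± 1.23 SE, adjusted p = 0.0143, and 4.69 ± 0.89 SE, adjusted p = 0.0153, by edgeR), beside 1.08% of all genes tested higher. This count of 2 came to 5 without M17, 1 without M13 or G42 and 0 without M24, G27 or G28. At an adjusted p under 0.05, 2 genes were higher and 9 lower in the DEN model against the normal control group, beside 25.3% and 20.5% of all genes tested. In PZH administration against DEN model rats 8 were higher and 0 lower, beside 8.72% and 10.3%.

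Relatives of the members by sequence, the other lipocalins, the oxidase Hao1, the Stac genes and the SLC22 transporters, did not all share the members' direction. Of 16 tested, 6 fell and 2 rose past the thresholds in the DEN model against the normal control group, and the count of 8 came to 5 without M13 and 4 without N1. Over all genes tested, 3.49% were lower and 8.81% higher past them. Lcn2, C8g, Slc22a8 and Slc22a12 were past the thresholds whichever rat was left out. Under library totals the split was 3 lower (Apom, C8g and Slc22a8) and 3 higher (Lcn2, Slc22a12 and Ptgds), and Rbp4, Hao1 and Slc22a7 were not past the thresholds. Among the lipocalins, C8g, a complement subunit, fell (-3.66 ± 0.42 SE, adjusted p = 0.000414 by edgeR), as did Apom, an apolipoprotein (-2.92 ± 0.48 SE, adjusted p = 0.00186 by edgeR) and Rbp4, the retinol carrier (-2.55 ± 0.42 SE, adjusted p = 0.00189 by edgeR). Lcn2, a lipocalin that binds iron carriers of bacteria, rose from 1.57 ± 0.561 to 71.4 ± 15.9 CPM (SD, n = 3; 5.51 ± 0.31 SE, adjusted p = 2.1e-05 by edgeR), and it was the relative that fell past the thresholds in PZH administration against DEN model rats (-2.71 ± 0.28 SE, adjusted p = 0.00513 by edgeR). Of the transporters, Slc22a8 fell (-3.67 ± 0.26 SE, adjusted p = 6.19e-05 by edgeR), while Slc22a12, the urate transporter, rose from 0.0515 ± 0.0446 to 5.89 ± 2.31 CPM (SD, n = 3; 6.64 ± 0.69 SE, adjusted p = 0.000274 by edgeR) and reached 3.20, 8.63 and 7.76 CPM in G27, G28 and G42. Of the kidney markers Slc34a1 and Kap were at 0 reads in all 9 rats, and the 6 markers summed to at most 3.51 CPM. Hao1, the liver oxidase closest to Hao2, fell (-2.59 ± 0.46 SE, adjusted p = 0.00265 by edgeR). In PZH administration against DEN model rats 3 relatives rose past the thresholds (Apom, C8g and Slc22a8), and the count of 4 with Lcn2 came to 8 without M17, 1 without M13 and 2 without M24, G27 or G28. Over all genes tested, 1.08% were higher and 1.35% lower past them in that comparison.

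**Figure D4:**
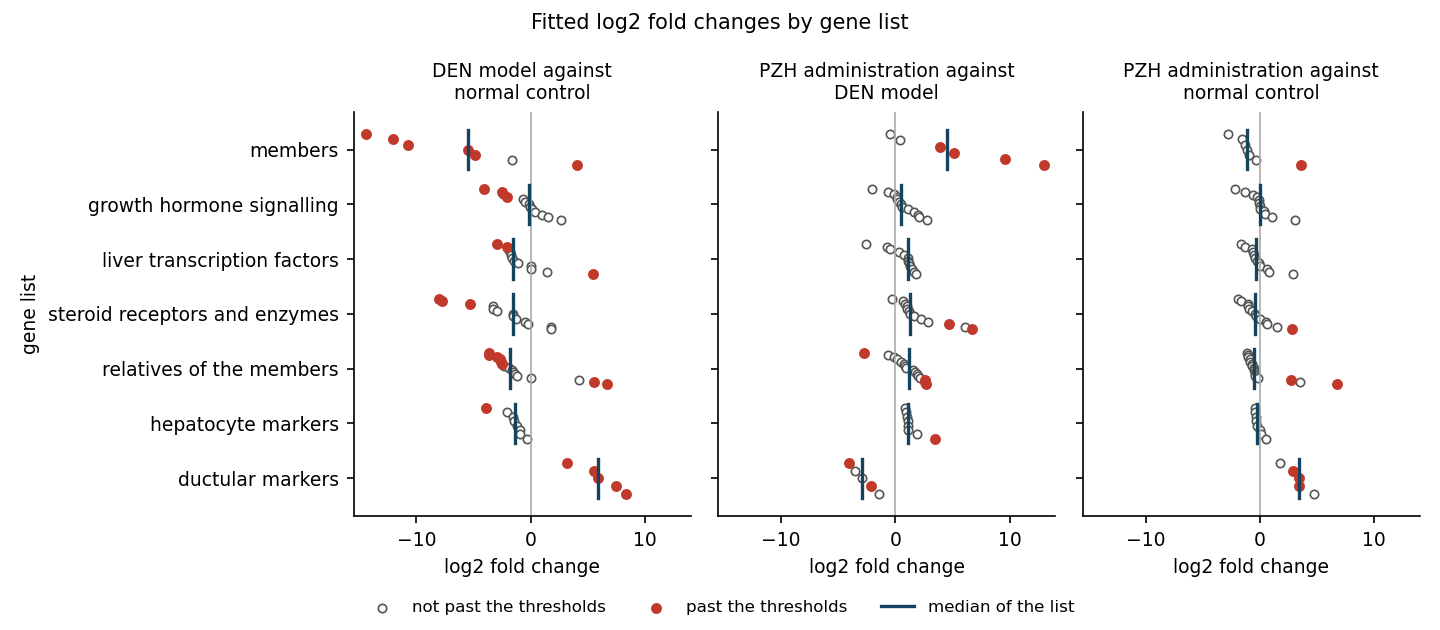
Fitted log2 fold changes of each gene tested, by gene list and comparison (horizontal axis), with filled points past the thresholds, open points not past them and a line at the list's median. The Mup4 rows and Stac3 reach further from 0 than the hepatocyte markers, which lie between -3.89 and -0.30 in the left panel, and the ductular markers go the other way there, from 3.22 to 8.34.

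Markers of some other cells differed between the groups. The 5 ductular markers were higher past the thresholds in the DEN model than in the normal control group in 5 of 5, beside 8.81% of all genes tested, with a summed level of 13.1 to 20.8 CPM in normal control, 198 to 722 CPM in DEN model and 74.0 to 87.2 CPM in PZH administration rats. The 6 stellate cell markers summed to 67.5 to 110 CPM, 482 to 1830 CPM and 251 to 335 CPM in the same groups, and the 5 lymphocyte markers to 23.2 to 34.2 CPM, 65.2 to 154 CPM and 36.9 to 49.1 CPM. The groups overlapped in the summed endothelial markers, whose mean was 90.5% of normal control in the DEN model and 93.6% in the PZH administration group, and in the summed macrophage markers, at 61.7% and 59.5%. Of the 8 hepatocyte markers, 1 (Ttr) was lower past the thresholds in the DEN model, beside 3.49% of all genes tested, and the list's median log2 fold change was -1.35. The part of these cells in the members' values was not tested.

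The genes most like each member in pattern were found by the root mean square difference of centred log2(CPM + 1) over the 9 rats, among 12539 tested genes with an official symbol outside the cluster. For the first Mup4 row they were Cyp2c11 (0.52), Cyp3a23/3a1 (1.12) and Car3 (1.22). For Hao2 they were Sult1c3 (0.29), Apoa2 (0.38) and Serpina3c (0.43), and for Ust5r they were Rup2 (0.35), Cyp2c13 (0.35) and Cyp3a18 (0.43). For Stac3 they were Aox3 (0.42), Zfp354a (0.73) and Nlrp12 (0.73), for Srd5a1 Cyp17a1 (0.38), Plbd1 (0.38) and Prg4 (0.39), and for A1bg Serpinb8 (0.52), Pkia (0.54) and Ugdh (0.55). The 9 rats fall into 3 groups, so this likeness rests mainly on the group means.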

How the data were processed

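Liver mRNA-seq of 9 rats was deposited as 1 table with a gene in each row. Its deposited counts are whole reads assigned to each gene, left unnormalized, and its FPKM columns hold values that the authors scaled for gene length and library size. The submitters' processing notes name fastp, HISAT2 2.1.0, StringTie 1.3.3b and edgeR 3.30.3, with no roles, and the genome build is not given in the sources used here. The deposited columns of fold changes and p-values are the authors' own comparisons and were not used.

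Groups follow the letter in the rats' titles. The treatment tag of the M rats reads PZH and was set aside. Counts were filtered with filterByExpr, scaled with TMM and tested on the 6 rats of each comparison by edgeR's quasi-likelihood test (edgeR 4.0.16, R 4.3.3), with Benjamini-Hochberg adjustment over all genes tested. The SE of a log2 fold change is its size divided by the square root of the F statistic. Before use the fit was run on simulated counts with the same spread for every gene and changes smaller than those of the urinary protein rows. That run does not show how the fit does on rows with few or no reads in a group. The p-values measure the spread between rats, 3 per group. FPKM were used to compare levels between genes, and no test was run on them. Where rats or groups are also set side by side in FPKM, the text names the scale. DESeq2 1.42.0 and the other alternatives are under the closing section. The members and gene lists were chosen with earlier results of these data known. The genes named were every member row, neighbours with a mean of at least 1 CPM, 10 genes of hormone action, up to 4 genes per list with the largest change past the thresholds, and the 3 genes most like each member. Genes outside this rule are markers and members of a short count.

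A row without a symbol is described as Mup5 mRNA and was read as a neighbour of Mup4, not as a member. Motifs were searched on both strands of RefSeq promoters (GRCr8), and alignments scored 1 for a match, -1 for a mismatch and -2 for a gap, with free ends. Some genes of the lists and 1 searched motif are not reported here.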

Additional observations from a re-analysis of the deposited data

How the results depend on the processing

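No paired analysis was possible because the groups share no replicate number. Of 234 counts of rows past the thresholds under an alternative, 164 stayed within 1.5 times the count reported, and 70 did not. Of 212 fitted log2 fold changes of members, 186 moved by less than the spread between rats, 24 moved by more in the same direction, and 2 changed sign, Srd5a1 to -0.22 under library totals and A1bg to 0.65 without M13, from a range of -1.07 to 0.65 with 1 rat left out, both for PZH administration against DEN model. The causes were not tested, except that a minimum of 10 counts in every rat removes any row near 0 in a group. The depth limits A1bg in normal control rats, Stac3 and the urinary protein rows in DEN model rats, where a few reads or none set the fold. Below, the comparisons are DEN model against normal control (the first), PZH administration against DEN model (the second) and PZH administration against normal control (the third). No share of all genes was worked out under the alternatives, except at an adjusted p under 0.05 with no fold, as given above.

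With at least 10 counts in every rat, 2, 2 and 0 member rows were past the thresholds in the first, the second and the third comparison, and the neighbouring rows were 1 in the first and 0 in the second. Under the same filter 1 transcription factor passed in the first, the steroid genes were 1, 1 and 0 in the 3 comparisons, and 1 relative passed in the third. By DESeq2, 6 steroid genes passed in the first comparison, 1 growth hormone signalling gene and 1 transcription factor in the second, and 1 growth hormone signalling gene in the third. With no filter on low counts, and also with all 3 groups in one fit, 1 growth hormone signalling gene passed in the second and 1 in the third comparison, and the single fit left 0 member rows in the third. Under library totals, 1 transcription factor and 1 relative passed in the second comparison and 1 growth hormone signalling gene in the third. With an adjusted p under 0.05 and the fold kept, growth hormone signalling gave 5, 2 and 1 genes in the 3 comparisons, the steroid list 6 in the first and 4 in the second, and the transcription factors 1 in the second. With an adjusted p under 0.05 and no fold, growth hormone signalling gave 8, 3 and 1 genes, the transcription factors 10, 5 and 1, and the steroid list 11, 8 and 5. Under that rule the relatives gave 15 in the first and 10 in the second comparison, and in the third 3 member rows and 2 neighbouring rows passed. Leaving out 1 rat at a time gave 1 to 6 steroid genes and 4 to 10 relatives in the first comparison. In the second it gave 0 to 2 growth hormone signalling genes, 0 to 1 transcription factors, 0 to 5 steroid genes and 1 to 8 relatives. In the third it gave 0 to 3 member rows, 0 to 5 neighbouring rows, 0 to 1 growth hormone signalling genes, 0 to 1 transcription factors and 0 to 1 steroid genes.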

Other observations

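A separate family of urinary proteins lies on chromosome 8 of the rat, outside the lipocalins, and 6 rows of the file are described as its members. These rows were chosen after their values were seen, and they are given with no test. Rup2 (urinary protein 2, chr8:41657566-41661238) was at 2933, 3810.2 and 4867 CPM in N1, N12 and N3, at 73.9, 300.1 and 94.2 CPM in M13, M17 and M24 and at 3514, 3415 and 2749.8 CPM in G27, G28 and G42. The DEN model rats lay below all others, and it was also the named gene closest to Ust5r in pattern. LOC680406, described as similar to the precursor of the same protein (chr8:37702231-37705044), was at 2627, 3091 and 4561 CPM in the normal control rats, at 41.9, 174 and 46.0 CPM in the DEN model rats and at 1538, 2399 and 1616 CPM in the PZH administration rats.

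LOC100360095, described as like urinary protein 1 (chr8:38150659-38154344), was at 767, 1977 and 966 CPM in the normal control rats, at 0, 2.33 and 0.333 CPM in the DEN model rats and at 526, 1109 and 416 CPM in the PZH administration rats. LOC100912405, described as like urinary protein 3 (chr8:38545715-38549268), was at 292, 253 and 336 CPM, at 0.935, 7.92 and 1.71 CPM and at 218, 232 and 236 CPM in the same groups. In each of these 4 rows the DEN model rats were below every rat of the other groups, and M17 was the highest of them. LOC100912026 had at most 2 reads in a DEN model rat and was at 2.98 ± 0.343 CPM in the normal control and 2.94 ± 1.36 CPM in the PZH administration rats (SD, n = 3), and RGD1560112 had 0 reads in all 9 rats.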
